A study of Homo sapiens with 18 samples.

Results

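Gene expression in LNCaP cells treated with the androgen receptor agonist dihydrotestosterone (DHT) was compared with that in LNCaP cells treated with the androgen receptor antagonist enzalutamide. LNCaP is an established human prostate cancer line, grown from a metastasis in a lymph node, and depends on androgen for much of its secretory programme. The comparison was made between 6 of the 18 arrays of the study, chosen by their treatment labels. They were 3 arrays of cells given 100 nM DHT and 3 arrays of cells given 10 µM enzalutamide with solvent. The other groups, of 3 arrays each, received DHT 100 nM with enzalutamide 10 µM, DHT 100 nM with enzalutamide 1 µM, enzalutamide 1 µM, or the solvent DMSO (vehicle). In the test of DHT against enzalutamide 10 µM, these other groups entered only the estimate of spread. All 6 groups shared the same cell line, medium with 5% hormone-depleted serum and 16 h of exposure. The compounds were thus compared at different doses, 100 nM and 10 µM. No label says whether the replicates were separate cultures, so the p-values measure only the spread between these arrays, which may be technical.

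The androgen receptor is a ligand-activated transcription factor. When an agonist such as DHT binds, the receptor moves to the nucleus, binds androgen response elements in enhancers and promoters, and recruits coactivators. Enzalutamide occupies the same ligand pocket and hinders nuclear entry, DNA binding and coactivator recruitment. In prostate luminal cells the active receptor drives secreted proteases such as the kallikreins, lipid synthesis and protein export, and it also lowers a set of genes that includes enzymes inactivating androgen.

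Values are log2 signals, so a difference of 1 is a 2-fold change. A probe set was called when the adjusted p-value of limma's moderated test, over all 54613 non-control probe sets, was below 0.05. Each of 19178 genes was represented by the probe set of highest mean signal. The median probe set had a signal of 6.98, and signals below it lie in the range where background weighs most. Among the 6 arrays DHT replicate 2 stood apart: its ratio of 3′ to 5′ actin signal, a sign of shortened RNA, was 4.50, while the other DHT and the enzalutamide arrays had ratios of 1.42 to 1.70. Its median signal of 6.87 was also the lowest of the 6, with the highest at 7.17. Results were therefore also computed without it.

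Between DHT and enzalutamide 10 µM, 3322 probe sets (6.08%) were called, 1613 higher (2.95%) and 1709 lower (3.13%) with DHT. Of these probe sets, 48.6% were higher with DHT. When each array was centred on its median, 2475 probe sets were called and 59.2% of them were higher. At the gene level 1680 genes (8.76%) were called, with 871 higher (4.54%) and 809 lower (4.22%). The difference was at least 2-fold for 251 genes higher and 223 lower with DHT, and at least 8-fold for 25 higher and 6 lower. The median difference was 0.69 among the genes called higher and −0.69 among those called lower, while over all genes it was −0.02. Of the 12756 genes at or above the median signal, 822 were called higher and 762 lower, a larger share than over all genes. Most gene lists below hold mainly such genes, so the 8.76% given beside them is a low reference. In 1666 of the 1680 called genes the 3 DHT arrays did not overlap the 3 enzalutamide arrays, a separation that 25.1% of all genes showed. In such bulk samples, fewer cells of a type and less RNA per cell cannot be told apart. Without DHT replicate 2, 2900 probe sets were called, and 2455 of them were among the 3322.

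**Figure D1:**
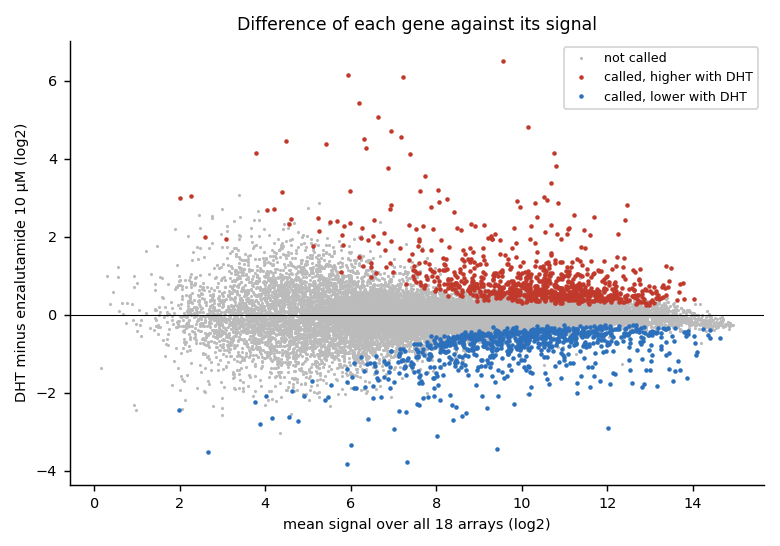
Log2 difference of DHT minus enzalutamide 10 µM for each of 19178 genes (vertical axis) against the mean log2 signal over all 18 arrays (horizontal axis); red and blue points are genes called higher and lower with DHT, grey points are not called. The largest positive differences reach further from 0 than the largest negative ones, with 25 genes at least 8-fold higher against 6 at least 8-fold lower.

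The kallikrein genes KLK2 and KLK3, neighbours on chromosome 19, were among the brightest genes with DHT and were higher than with enzalutamide. The promoter windows of both are shown because they share a sequence in which a known androgen response element of KLK3 lies. The windows run from 250 bases before to 50 bases after the transcript start, on the plus strand of GRCh38.p14, as given by RefSeq. Capitals mark the motif GAACANNNAGTGCT, and in KLK3 also the short form AGAACA that overlaps it.
KLK3, chr19:50854665-50854964: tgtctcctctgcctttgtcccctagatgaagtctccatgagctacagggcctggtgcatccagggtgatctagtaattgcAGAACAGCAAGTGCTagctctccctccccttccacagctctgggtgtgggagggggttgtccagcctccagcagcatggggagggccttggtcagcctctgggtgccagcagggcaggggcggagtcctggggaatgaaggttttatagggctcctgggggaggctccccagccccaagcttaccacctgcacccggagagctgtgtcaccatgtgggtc
KLK2, chr19:50873189-50873488: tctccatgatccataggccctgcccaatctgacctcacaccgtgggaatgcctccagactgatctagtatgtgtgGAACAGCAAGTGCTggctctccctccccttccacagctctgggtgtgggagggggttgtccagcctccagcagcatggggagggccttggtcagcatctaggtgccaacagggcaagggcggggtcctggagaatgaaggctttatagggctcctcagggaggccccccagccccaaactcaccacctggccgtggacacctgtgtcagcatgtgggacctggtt

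In KLK3 the short form AGAACA began 170 bases before the start. The motif GAACANNNAGTGCT was chosen after these windows were read. On either strand it occurred in the promoters of 6 of the 13607 genes with a promoter in the table (0.0441%), and KLK2 and KLK3 were the 2 among 670 genes called higher. The short form AGAACA was present in 8.21% of the promoters of genes called higher and 8.09% of those called lower, against 10.6% of all 13607. The palindromic form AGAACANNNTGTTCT was present in 0 of the 13607 promoters. A match describes these letters in this window and does not locate receptor binding.

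KLK2, which encodes a secreted serine protease, had log2 signals of 13.79, 13.74 and 13.64 on the DHT arrays, against 7.41, 6.82 and 7.41 on the enzalutamide arrays. The groups stood far apart, and the difference of 6.51 ± 0.41 (SE) corresponded to 91.2-fold (adjusted p = 1.5e-08, limma). The enzalutamide signals lay close to that of the median probe set, so the size of the fold is uncertain. Of 4 KLK2 probe sets 3 were called higher, and the other differed by −0.42. KLK3, which encodes prostate-specific antigen, had signals of 14.18, 14.10 and 14.31 with DHT, against 11.46, 11.13 and 11.53 with enzalutamide. Its difference was 2.82 ± 0.24 (7.07-fold, adjusted p = 5.8e-07), and all 3 of its probe sets were called higher. KLK2 and KLK3 are close in sequence, and the KLK3 probe set is of a type that can bind related transcripts, so their signals may not be fully separate.

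The other genes with the largest increases included membrane proteins and signalling regulators. STEAP4, a metalloreductase, had signals of 11.51, 11.37 and 11.05 with DHT, against 5.29, 4.30 and 6.04 with enzalutamide. The enzalutamide signals lay below that of the median probe set, so the difference of 6.10 ± 0.61 (adjusted p = 3.7e-06) rests on a poorly measured lower level. TMPRSS2, a transmembrane serine protease, had signals of 13.19, 12.98 and 13.15 with DHT, against 7.62, 8.47 and 8.76 with enzalutamide. Its difference was 4.82 ± 0.26 (28.2-fold, adjusted p = 2.1e-09), and all 4 of its probe sets were called higher. FKBP5, a cochaperone of steroid receptors, had signals of 13.83, 13.78 and 13.75 with DHT, against 9.53, 9.78 and 9.61 with enzalutamide, a difference of 4.15 ± 0.17 (adjusted p = 1.3e-10). The replicates of FKBP5 varied little, with SDs of 0.04 for DHT and 0.13 for enzalutamide (n = 3 each).

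Further increases were measured for F5 (coagulation factor V, difference 4.56), NNMT (nicotinamide N-methyltransferase, 4.11), PMEPA1 (a membrane protein that dampens TGF-beta signalling, 3.81) and SGK1 (a serum- and glucocorticoid-regulated kinase, 3.56). RHOU (a small GTPase, 3.37), HPGD (which inactivates prostaglandins, 3.20), CENPN (a centromere protein, 3.02) and GREB1 (a hormone-responsive coregulator, 2.91) followed. TMEM79 and GLMP, neighbouring genes on chromosome 1 that encode membrane proteins, were higher by 2.98 and 2.96. LOC285463, an uncharacterised locus, had signals of 10.75, 8.01 and 10.11 with DHT, against 6.76, 5.48 and 7.08 with enzalutamide. It was the least even of the 15 largest increases, and its call (adjusted p = 0.009, 0.0011 without DHT replicate 2) was lost without DHT replicate 1 or enzalutamide replicate 2 and with the 6 arrays alone (adjusted p = 0.056).

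**Figure D2:**
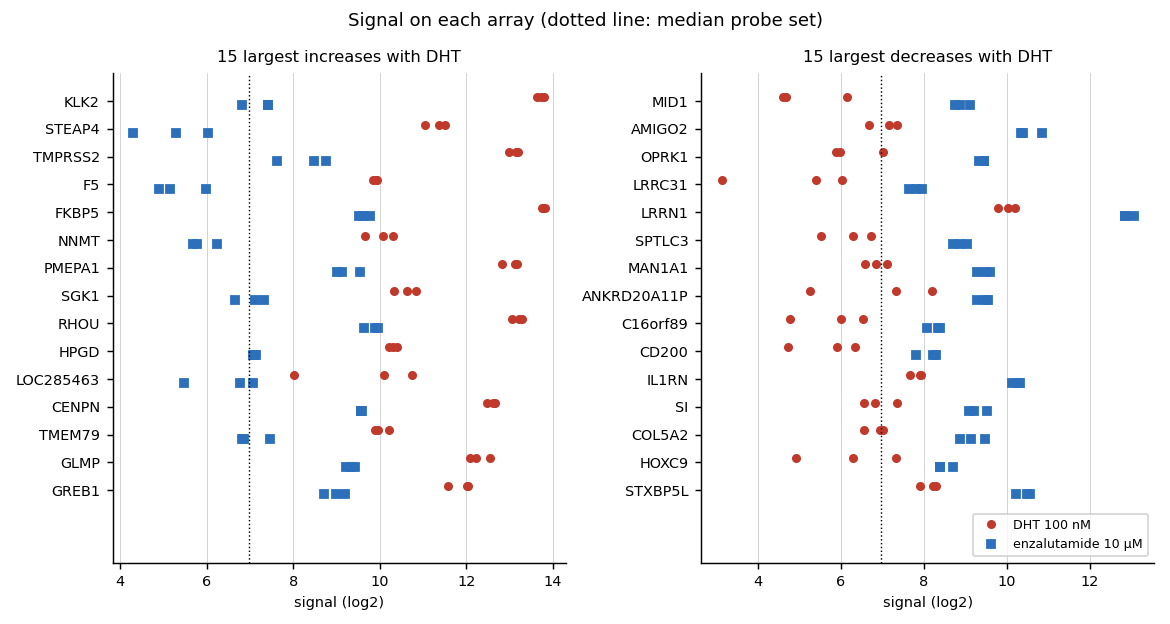
Log2 signal on each DHT array (red circles) and each enzalutamide 10 µM array (blue squares) for the 15 genes with the largest increase (left) and the 15 with the largest decrease (right) among called genes whose mean signal was at or above 6.98; the dotted line marks that value. The groups do not overlap in any of the 30 genes, as their choice required, and many of the decreased genes lie near or below the dotted line with DHT.

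The genes most lowered with DHT included neuronal and cell-surface genes. LRRN1, a leucine-rich repeat protein of neurons, had signals of 9.80, 10.19 and 10.03 with DHT, against 12.84, 13.06 and 12.84 with enzalutamide. This gene was well above the median signal in both groups, and its difference of −2.91 ± 0.11 (7.52-fold lower) had an adjusted p of 1.2e-10. AMIGO2, a cell adhesion protein, had signals of 6.69, 7.37 and 7.17 with DHT, against 10.38, 10.84 and 10.34 with enzalutamide, a difference of −3.45 ± 0.19 (adjusted p = 2.2e-09). MID1, a microtubule-associated ubiquitin ligase, had signals of 4.67, 4.61 and 6.15 with DHT, against 8.88, 9.10 and 8.76 with enzalutamide. Its difference of −3.77 (adjusted p = 1.6e-05) was the largest decrease among the named genes, with DHT signals below the median probe set.

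OPRK1, the kappa opioid receptor, fell by 3.11 on the log2 scale, and CD200, an immune-inhibitory surface glycoprotein, fell by 2.46. STXBP5L, a regulator of vesicle release, fell by 2.28 to signals of 7.92, 8.22 and 8.29 with DHT, against 10.23, 10.56 and 10.49 with enzalutamide. Enzymes among the decreases were MAN1A1 (a Golgi mannosidase, −2.61), SPTLC3 (a subunit of serine palmitoyltransferase, −2.69) and SI (sucrase-isomaltase, −2.36). IL1RN, the interleukin 1 receptor antagonist, fell by 2.40, and COL5A2, a collagen chain, by 2.32. LRRC31 (−2.94), C16orf89 (−2.50), the pseudogene ANKRD20A11P (−2.51) and the homeobox gene HOXC9 (−2.32) had uneven DHT arrays, with SDs of 1.52, 0.89, 1.51 and 1.20 (n = 3 each). Of these 4 genes, LRRC31, ANKRD20A11P and HOXC9 were not called when only the 6 arrays were fitted.

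Genes known to be induced by androgen moved together. Of 34 measured members of this list, 30 were called higher with DHT and 0 lower, or 88.2% beside 8.76% of all genes. The counts were the same without DHT replicate 2. The median difference was 2.47, while it was −0.02 over all genes. Beside the genes above, the transcription factor MAF rose by 2.76, the stress-responsive gene NDRG1 by 2.57, the solute carrier SLC45A3 by 2.52 and the efflux transporter ABCC4 by 2.51. SLC45A3 had signals of 11.90, 11.86 and 11.85 with DHT, against 9.22, 9.46 and 9.38 with enzalutamide. The smallest called increases were those of SORD (sorbitol dehydrogenase, 0.82) and TPD52 (0.85), whose signals were among the brightest: SORD had 14.27, 14.30 and 14.31 with DHT, against 13.45, 13.44 and 13.52 with enzalutamide. The 4 members not called were ADAMTS1, KLK4, IGF1R and CAMKK2, with differences of 0.11, 0.15, 0.09 and −0.08. For KLK4 and IGF1R other probe sets disagreed, since 3 of 5 and 4 of 7 of them were called higher. The list was drawn up with results of these arrays known, so its direction is not independent evidence.

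Of 15 measured genes known to be repressed by androgen, 8 were called lower and 1 higher, with a median difference of −0.75. The called share was 60%, beside 8.76% of all genes. This list, too, was drawn up with results of these arrays known, and OPRK1 and SI, named above, are members. Its share and direction are therefore not independent evidence. UGT2B15 and UGT2B17, which glucuronidate and thereby inactivate androgens, were lower by 1.70 and 1.82. UGT2B15 had signals of 12.36, 12.68 and 12.59 with DHT, against 14.33, 14.29 and 14.11 with enzalutamide, and 14.03 ± 0.03 (SD, n = 3) with vehicle. The UGT2B genes are near-identical copies whose probes may not separate them. CAMK2N1, an inhibitor of calmodulin-dependent kinase, was lower by 1.45, and BCHE, butyrylcholinesterase, by 1.43. CCND1, cyclin D1, was the member called higher, with signals of 10.98, 11.14 and 10.54 with DHT, against 10.06, 10.03 and 9.97 with enzalutamide. These counts also did not change without DHT replicate 2.

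Receptor cofactors were measured next. FOXA1, a pioneer factor for steroid receptors, averaged 12.24 ± 0.15 with DHT and 11.95 ± 0.12 with enzalutamide (SD, n = 3 each). The groups did not overlap, and they differed by 0.30 (adjusted p = 0.054), a difference that was called without DHT replicate 3. Of 21 receptor and coregulator genes, PIAS1 (0.47) and EP300 (0.38) were called higher and GATA2 (−0.44) lower, or 14.3% beside 8.76% of all genes. With arrays centred on the median all 3 calls were lost (adjusted p = 0.10, 0.12 and 0.16). Without DHT replicate 2 the counts were 0 higher and 2 lower, with PIAS1 and EP300 at adjusted p-values of 0.17 and 0.20. Both also lost their call without enzalutamide replicate 1 or 3, and EP300 without DHT replicate 1.

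**Figure D3:**
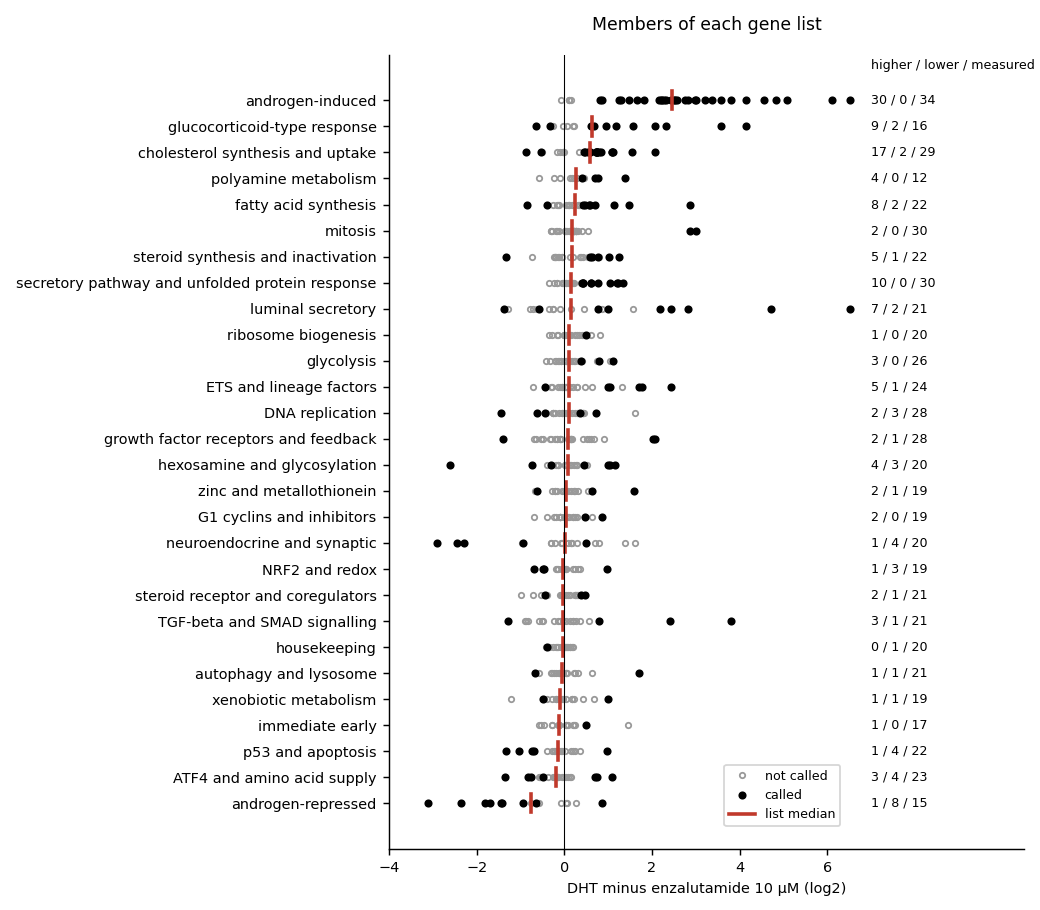
Log2 difference of DHT minus enzalutamide 10 µM for the members of each of 28 gene lists; filled points are called genes, open points are not called, and red bars are list medians. The numbers on the right are members called higher with DHT, called lower and measured, and the androgen-induced list lies furthest to the right with 30 of 34 members called higher.

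Genes of cholesterol synthesis and uptake were mostly higher with DHT: 17 of 29 were called higher and 2 lower (median 0.58), or 15 and 2 without DHT replicate 2. Called members made up 65.5%, beside 8.76% of all genes. HMGCS1, which condenses acetoacetyl-CoA with acetyl-CoA, had signals of 10.91, 11.13 and 11.08 with DHT, against 10.20, 10.19 and 10.22 with enzalutamide (difference 0.84, adjusted p = 6.6e-05). Increases in later steps of the pathway included IDI1 (0.79, with another of its 5 probe sets called lower), FDFT1 (0.73), SQLE (0.58) and LSS (0.54). INSIG1, which holds back the sterol-sensing complex, was higher by 1.12. SCAP, the escort protein of that complex, had 11.31, 10.69 and 10.44 with DHT, against 10.13, 9.17 and 9.86 with enzalutamide (difference 1.09). INSIG2 (−0.88) and HSD17B7 (−0.54) were the members called lower, and the transcription factor SREBF2 differed by 0.00 (adjusted p = 1). When only the 6 arrays were fitted, 12 members were called higher. CYP51A1 and FDPS lost their call without DHT replicate 2 and also without enzalutamide replicate 1 or 3.

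In fatty acid synthesis 8 of 22 genes were called higher and 2 lower, or 45.5% beside 8.76% of all genes. ELOVL7, a fatty acid elongase, had signals of 12.13, 12.09 and 11.94 with DHT, against 9.03, 9.29 and 9.23 with enzalutamide (difference 2.87, adjusted p = 1.5e-10). ACSL3, which activates long-chain fatty acids, rose by 1.49 and FASN, fatty acid synthase, by 1.12. FASN varied more between arrays, with 12.28, 11.37 and 11.35 with DHT, against 10.80, 10.09 and 10.73 with enzalutamide, and it was not called without enzalutamide replicate 2 (adjusted p = 0.051). With the 6 arrays alone, 4 members were called higher and 0 lower.

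Genes of protein export and glycosylation showed increases in selected members. Of 30 genes of the secretory pathway and the unfolded protein response, 10 were called higher and 0 lower, or 8 and 0 without DHT replicate 2 and 5 and 0 with the 6 arrays alone. The called share of this list was 33.3%, beside 8.76% of all genes. PDIA5, a disulfide isomerase, rose by 1.34, DNAJB9, a cochaperone of the endoplasmic reticulum, by 1.23, SEC24D, a coat protein of export vesicles, by 1.21 and the membrane-bound transcription factor CREB3L4 by 1.03. The main luminal chaperones HSPA5 and HSP90B1 differed by −0.16 and −0.03 and were not called. In the hexosamine and glycosylation list of 20 genes, 4 were called higher and 3 lower (35% called). UAP1, PGM3 and GNPNAT1, which make UDP-N-acetylglucosamine, rose by 1.15, 1.00 and 0.45, whereas the mannosidase MAN1A1 and the fucosyltransferase FUT8 fell by 2.61 and 0.74. With arrays centred on the median FUT8 was not called (adjusted p = 0.059) and the list had 1 member called lower.

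In polyamine metabolism 4 of 12 genes were called higher and 0 lower, or 33.3% beside 8.76% of all genes. They were SMS (spermine synthase, 1.37), SRM (spermidine synthase, 0.78), ODC1 (ornithine decarboxylase, 0.69) and SAT1 (a polyamine acetyltransferase, 0.40). SAT1 was not called without DHT replicate 2 (adjusted p = 0.086), nor without DHT replicate 3 or enzalutamide replicate 1 or 3, nor under centring. Prostate tissue is known for its high polyamine output.

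Secretory markers of luminal cells did not all move the same way. Of 21 genes, 7 were called higher and 2 lower, or 42.9% beside 8.76% of all genes. AZGP1, a secreted zinc-binding glycoprotein, rose by 2.19, and the cold-sensing channel TRPM8 had 9.28, 9.58 and 9.64 with DHT, against 3.31, 5.34 and 5.70 with enzalutamide. The decreases were in ACP3, prostatic acid phosphatase, with 12.60, 12.73 and 12.48 with DHT, against 13.85, 14.18 and 13.92 with enzalutamide (difference −1.38), and in FOLH1, prostate-specific membrane antigen (−0.59). All 4 FOLH1 probe sets were called lower, but the brightest was not with arrays centred on the median (adjusted p = 0.054). In the neuroendocrine and synaptic list of 20 genes, 4 were called lower and 1 higher (25% called). LRRN1, CD200 and STXBP5L were put on that list because they were known to be low with DHT, and the classical marker CHGA differed by −0.22 (adjusted p = 0.92).

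Steroid metabolism had 5 of 22 genes called higher and 1 lower, or 27.3% beside 8.76% of all genes. SRD5A1, which makes DHT from testosterone, rose by 0.58 (not called without enzalutamide replicate 1, adjusted p = 0.056) and the steroid sulfatase STS by 0.77, while AKR1C3, a ketosteroid reductase, fell by 1.32. AKR1C3 signals were low, at 5.38, 5.80 and 5.99 with DHT, against 6.92, 7.04 and 7.19 with enzalutamide. Among 16 genes best known as glucocorticoid targets, 9 were called higher and 2, DUSP1 (−0.65) and BCL6 (−0.33), lower (68.8% called). Without DHT replicate 2, and also with arrays centred on the median, the counts were 9 and 0. BCL6 lost its call when any of the 6 arrays was left out, and DUSP1 also without DHT replicate 1 or enzalutamide replicate 1 or 3. The increases beside FKBP5 and SGK1 were ZBTB16 (a zinc finger repressor, 2.31), ERRFI1 (a feedback inhibitor of EGF receptors, 2.08), KLF4 (1.56), the thiamine transporter SLC19A2 (1.18), NFKBIA (0.96), CEBPD (0.68) and MAOA (monoamine oxidase A, 0.60).

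Growth factor genes were called in 10.7% and TGF-beta genes in 19.0% of members, beside 8.76% of all genes. Of 28 growth factor genes, ERRFI1 and the insulin receptor substrate IRS2 (2.02) were called higher and the adaptor GRB10 lower. GRB10 had 12.53, 12.56 and 12.66 with DHT, against 14.05, 13.89 and 14.04 with enzalutamide, and all 4 of its probe sets were called lower. Of 21 TGF-beta and SMAD genes, PMEPA1, BMPR1B (2.42) and BMPR1A (0.78) were called higher and ID3 (−1.29) lower. ID3 was not called without DHT replicate 2 (adjusted p = 0.058) or 3, nor without enzalutamide replicate 1 or 2.

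Of the cell cycle lists, 6.67% of mitosis genes, 2 of 19 G1 genes and 17.9% of DNA replication genes were called, beside 8.76% of all genes. Of 30 mitosis genes 2 were called higher and 0 lower, namely CENPN and the condensin subunit NCAPD3, which had 13.51, 12.97 and 12.87 with DHT, against 10.33, 10.10 and 10.35 with enzalutamide. The mitotic kinase CDK1 differed by 0.14 and the topoisomerase TOP2A by 0.26, and neither was called. Of 28 DNA replication genes 2 were higher and 3 lower, with the helicase subunit MCM4 at 0.72 and cyclin CCNE2 at −1.46. Without DHT replicate 2 the counts were 1 and 3, and with arrays centred on the median 1 and 2. Among the called genes TK1 (−0.44) lost its call when any of the 6 arrays was left out. MCM6 (0.36) lost it without DHT replicate 2 or 3 or any enzalutamide replicate, and centring ended both calls. Of 19 G1 genes CCND1 (0.87) and CDK2 (0.47) were called higher and 0 lower.

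Stress and survival genes moved in both directions. In the p53 and apoptosis list of 22 genes, the death receptor FAS (−1.32), TP53INP1 (−1.03), SESN1 (−0.73) and BIRC3 (−0.69) were lower and TNFRSF10B (0.96) was higher. Called members were 22.7% of the list, beside 8.76% of all genes. FAS had 7.46, 7.33 and 7.61 with DHT, against 8.67, 8.90 and 8.81 with enzalutamide. In the list of 23 ATF4 and amino acid genes, 3 were higher and 4 lower (30.4% called). Decreases included CHAC1 (a glutathione-degrading enzyme, −1.35, not called without enzalutamide replicate 1), the stress factor DDIT3 (−0.82) and the serine synthesis enzyme PSAT1 (−0.76). Of 24 ETS and lineage factors (25% called), 5 were called higher, including ELK4 (1.76), GRHL2 (1.05) and SPDEF (1.00). GATA2 was called lower, though not with arrays centred on the median. SESN1 also lost its call under centring (adjusted p = 0.057).

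In the remaining lists 5.00% to 21.1% of members were called, beside 8.76% of all genes. Most members of each of these lists were at or above the median signal, where the called share was larger than 8.76%. Of 26 glycolysis genes HK2 (hexokinase 2, 1.11), PFKFB2 (0.80) and MPC2 (0.38) were higher, and without DHT replicate 2 the call of MPC2 was lost (adjusted p = 0.099). In zinc handling the importer SLC39A10 rose by 1.59 and SLC30A7 by 0.63, while SLC39A8 fell by 0.63, of 19 genes, the last not without DHT replicate 1 or enzalutamide replicate 2. Of 19 redox genes GSR was higher (0.98) and NQO1, GCLC and CAT lower, CAT not without DHT replicate 2 (adjusted p = 0.20). Centring on the median ended the calls of MPC2, SLC39A8, CAT, NQO1 (adjusted p = 0.052), PRKAA1 (0.051) and TBP among the genes named in these lists. Of 19 genes of xenobiotic metabolism TIPARP was higher (1.00) and NQO1 lower (−0.49). Of 21 autophagy and lysosome genes WIPI1 was higher (1.70) and PRKAA1 lower (−0.66). MYC (0.49) was the called gene both among 17 immediate early genes and among 20 ribosome biogenesis genes, and TBP (−0.40) was the called gene among 20 housekeeping genes. PFKFB2, MPC2, CAT, MYC and TBP each lost their call when any of 3 or more of the 6 arrays was left out.

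Cell type markers fitted the label of a prostate luminal line. The 11 luminal markers summed to linear signals of 122384 to 125534 on the DHT arrays and 93490 to 99470 on the enzalutamide arrays. The 8 basal markers summed to 894 to 1026 with DHT and 935 to 1127 with enzalutamide, and 0 of them were called. Of 11 fibroblast markers, summing to 3728 to 4256 with DHT and 5821 to 6492 with enzalutamide, FN1 (fibronectin) was called lower, and of 9 leukocyte markers, summing to 709 to 1062 with DHT and 893 to 1294 with enzalutamide, MS4A1 was (not without DHT replicate 2, adjusted p = 0.14). The 7 endothelial markers summed to 377 to 556 with DHT and 672 to 786 with enzalutamide, with 0 called. The array gives a background signal to genes that are not expressed, so no marker is at 0, and the part of these cell types in the results was not tested.

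The vehicle arrays place both treatments beside hormone-depleted cells. The contrasts of DHT and of enzalutamide with vehicle share arrays with the comparison above, so their values are given side by side only. DHT and vehicle differed in 1636 genes (8.53%) and enzalutamide 10 µM and vehicle in 25 (0.13%). The contrast of enzalutamide with vehicle is also the test of whether a gene's DHT difference depends on the choice between enzalutamide and vehicle as comparator. Enzalutamide at 1 µM and 10 µM differed in 3 genes (0.0156%).

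Some genes were moved by enzalutamide alone in the direction of DHT. CREB3L4 averaged 12.13 ± 0.04 with DHT and 11.10 ± 0.03 with enzalutamide, against 10.68 ± 0.04 with vehicle (SD, n = 3 each). The enzalutamide minus vehicle difference was 0.42 (adjusted p = 0.026). TLE1, a Groucho family corepressor, was lowered by both, with 10.53 ± 0.06 with DHT and 11.17 ± 0.18 with enzalutamide, against 11.81 ± 0.05 with vehicle (enzalutamide minus vehicle −0.63, adjusted p = 0.013). KLK3 and KLK2 were higher on average with enzalutamide than with vehicle by 1.22 and 1.76, but neither passed the test (adjusted p = 0.063 and 0.12). The KLK2 vehicle signals of 4.02, 6.13 and 6.20 were uneven and below that of the median probe set, so its 1.76 is poorly measured.

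Other genes lay on opposite sides of vehicle. IL1RN averaged 7.84 ± 0.15 with DHT and 10.24 ± 0.09 with enzalutamide, against 9.52 ± 0.21 with vehicle, and enzalutamide was above vehicle by 0.72 (adjusted p = 0.03). FLJ30428, an uncharacterised transcript, averaged 10.71 ± 0.25 with DHT and 8.99 ± 0.16 with enzalutamide, against 9.81 ± 0.15 with vehicle. In these 2 genes both treatments were called against vehicle, in opposite directions.

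For a further set the called difference came from the enzalutamide side. MICA, a stress-induced ligand of natural killer cells, averaged 8.69 ± 0.08 with DHT and 7.59 ± 0.32 with enzalutamide, against 8.70 ± 0.21 with vehicle. DHT minus vehicle was −0.01 (adjusted p = 0.99) and enzalutamide minus vehicle was −1.12 (adjusted p = 0.025). STK40, a pseudokinase, averaged 8.06 ± 0.47 with DHT and 6.50 ± 0.34 with enzalutamide, against 7.85 ± 0.21 with vehicle. The glycosyltransferase GALNT2 (enzalutamide minus vehicle −0.54), the splicing kinase CLK1 (−0.80), the F-box gene FBXW2 (−0.48) and GLYR1 (−0.86) had the same pattern, with DHT minus vehicle between −0.19 and 0.10. GLYR1 lost its call between DHT and enzalutamide without DHT replicate 1 or enzalutamide replicate 1 or 2, with the 6 arrays alone (adjusted p = 0.17) and without the intensity trend. Of its 4 probe sets 1 was called, and another differed by −0.99. STK40 also had 1 of 2 probe sets called (the other at 0.06), GALNT2 1 of 4 (lowest −0.29) and FBXW2 1 of 5 (lowest −0.08). MICA and CLK1 had 1 probe set each. FOXA1 was also lower with enzalutamide than with vehicle, by 0.50 (adjusted p = 0.034).

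**Figure D4:**
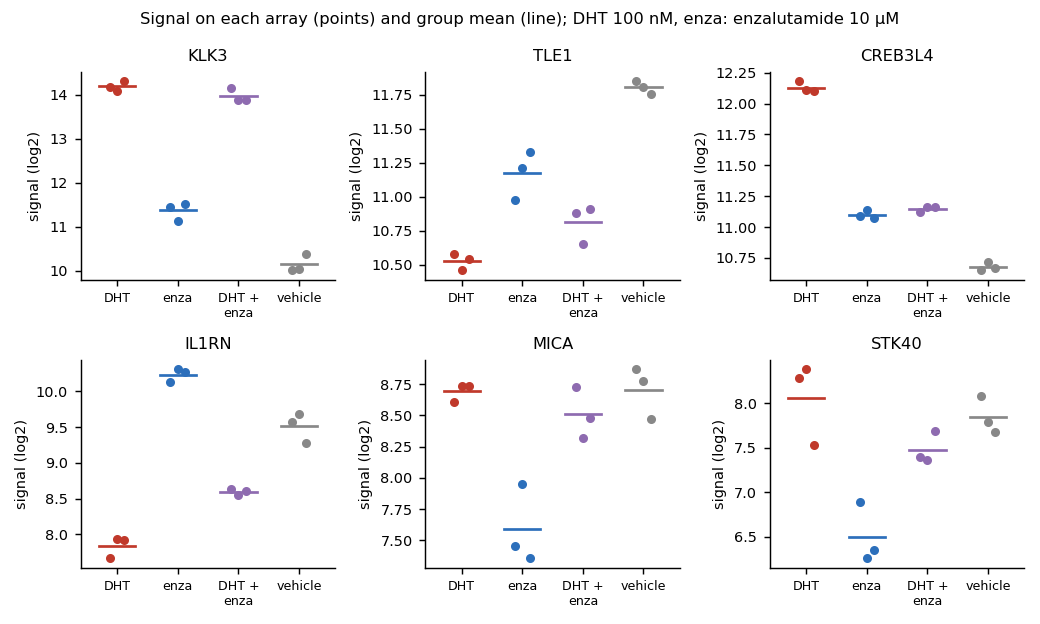
Log2 signal on each array (points) and group mean (lines) for 6 genes in cells given DHT, enzalutamide 10 µM, both together, or vehicle; each panel has its own vertical range, which does not start at 0. IL1RN shows DHT and enzalutamide on opposite sides of vehicle, while in MICA and STK40 the DHT arrays lie in the range of vehicle or near it and the enzalutamide arrays below it.

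Between DHT and enzalutamide 559 genes were called although neither was called against vehicle. Of the 505 of these at or above the median signal whose arrays did not overlap, the 6 with the largest differences are described. TLL2, a metalloprotease, averaged 8.20 ± 0.16 with DHT and 6.25 ± 0.89 with enzalutamide, against 7.71 ± 0.28 with vehicle (difference 1.95, adjusted p = 0.00061). SPOCK1, a proteoglycan, had 8.02, 8.54 and 8.13 with DHT, against 4.25, 7.05 and 6.50 with enzalutamide (difference 2.30). NDE1 (−2.08), the kinase BMX (−2.14), LOC158257 (1.65) and DGCR5 (−1.53) were the others. Further probe sets were not called: DGCR5 had 1 of 7 called, with another at 0.83, and TLL2 1 of 3, with another at −0.48. NDE1 had 1 of 4 called, with another at −0.15. BMX and LOC158257 had 1 of 2 called, with the other at −0.30 and 0.01. These 6 genes had DHT and enzalutamide means between 5.93 and 8.72, and all but LOC158257 lost their call when only the 6 arrays were fitted. LOC158257 lost its call when DHT replicate 1 or 2 (adjusted p = 0.075 without replicate 2) or any enzalutamide replicate was left out. BMX lost it without DHT replicate 1 or enzalutamide replicate 1 or 2, and DGCR5 lost it without DHT replicate 3 or any enzalutamide replicate. Centring on the median ended the calls of LOC158257 and DGCR5, and quantile normalization that of DGCR5. Without the intensity trend BMX, LOC158257 and DGCR5 were not called.

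The called genes were then read on arrays outside the contrast of DHT with enzalutamide. These arrays did enter the estimate of spread behind the calls. DHT with enzalutamide 10 µM was set against vehicle, a contrast in which 242 genes (1.26%) were called. Of the 871 genes higher with DHT, 630 (72.3%) had a positive difference there, with a median of 0.15, whereas 46.9% of all genes were positive. Of the 809 genes lower with DHT, 642 (79.4%) had a negative difference, with a median of −0.21, whereas 53.1% of all genes were negative. In the same contrast 88 of the 871 were called higher and 2 lower, and 80 of the 809 were called lower and 1 higher. DHT with enzalutamide 1 µM minus enzalutamide 1 µM, in which 1666 genes (8.69%) were called, had medians of 0.34 and −0.38 over the same sets. With arrays centred on the median these were 0.57 and −0.39. Enzalutamide 1 µM replicate 2 had the highest actin ratio of all 18 arrays (6.04), and without it and DHT replicate 2 the medians were 0.39 and −0.31. There 352 of the 871 were called higher and 5 lower, and 315 of the 809 were called lower and 1 higher.

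**Figure D5:**
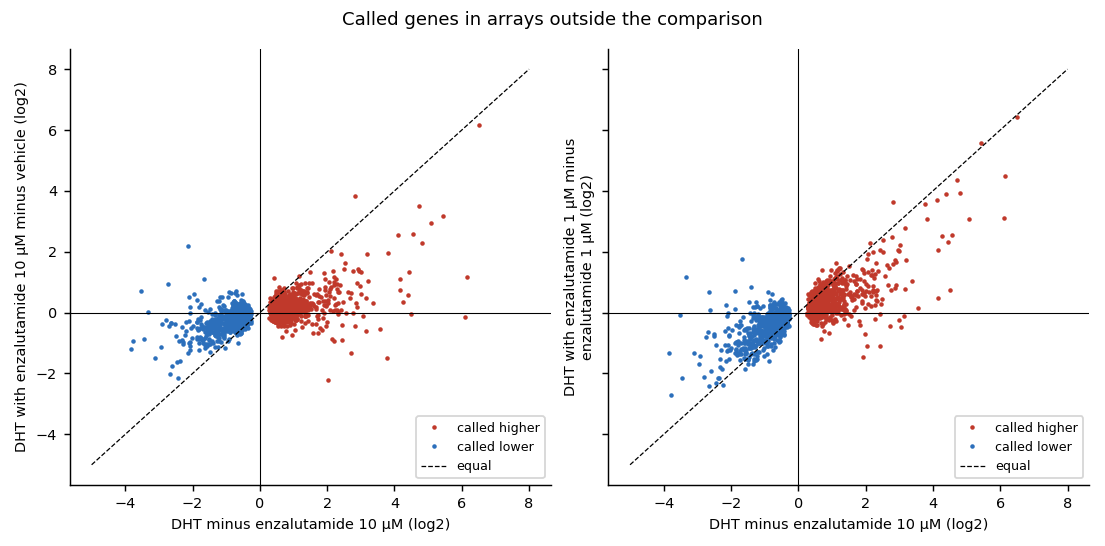
Each point is a gene called between DHT and enzalutamide 10 µM, with that log2 difference on the horizontal axis; the vertical axes give the log2 difference between DHT with enzalutamide 10 µM and vehicle (left) and between DHT with enzalutamide 1 µM and enzalutamide 1 µM (right). Most points lie nearer to 0 than the dashed line of equal differences, with medians of 0.15 and −0.21 on the left and 0.34 and −0.38 on the right.

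Genes differed in how much of the DHT difference was present with both compounds together. The differences set side by side have unlike baselines, vehicle for both compounds together and enzalutamide 10 µM for DHT alone. KLK3 averaged 13.97 with DHT and enzalutamide 10 µM, against 10.15 with vehicle, a difference of 3.82 (adjusted p = 3.6e-07) beside 2.82 between DHT and enzalutamide alone. KLK2 had 6.17 beside 6.51, with vehicle signals below that of the median probe set. DHT alone was above vehicle by 4.045 in KLK3 and by 8.27 in KLK2. In contrast SGK1 had −0.54 (adjusted p = 0.68) beside 3.56, STEAP4 had −0.16 (adjusted p = 0.97) beside 6.10, and RHOU had 0.33 (adjusted p = 0.40) beside 3.37. FKBP5 lay between, with 0.75 (adjusted p = 0.041) beside 4.15.

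SLC4A4, a sodium bicarbonate cotransporter, had the highest ratio of these differences among the named genes, with 1.13 (adjusted p = 1.4e-05) beside 0.42. TLE1 (−0.99 beside −0.65), NUDT4 (−0.50 beside −0.35), GRPEL1 (0.49 beside 0.30) and PIGW (0.70 beside 0.48) also exceeded the difference between the compounds given alone. Measured from vehicle, DHT alone differed by more than both compounds together in TLE1 (−1.28), NUDT4 (−0.61), GRPEL1 (0.56) and PIGW (0.97). In SLC4A4 DHT alone differed from vehicle by less (0.96). GRPEL1 and PIGW lost their call between DHT and enzalutamide without DHT replicate 2 (adjusted p = 0.17 and 0.11). Leaving out enzalutamide replicate 1 or 3 also ended the calls of GRPEL1 and PIGW, enzalutamide replicate 2 or DHT replicate 3 that of GRPEL1, DHT replicate 1 or enzalutamide replicate 2 or 3 that of SLC4A4, and enzalutamide replicate 3 that of NUDT4. With the 6 arrays alone, or without the intensity trend, SLC4A4, NUDT4, GRPEL1 and PIGW were not called. Centring also ended the calls of NUDT4 and GRPEL1, and quantile normalization and the replicate block that of GRPEL1. Of the 6 NUDT4 probe sets 2 were called lower, and another differed by 0.89. SLC4A4 had 1 of 5 probe sets called, with another at −0.15, and TLE1 had 2 of 6 called lower, with another at −0.12. CLK1 went the other way, with −0.79 (adjusted p = 0.004) beside 0.66, as did the uncharacterised transcript DKFZp762F0713, with −0.74 (adjusted p = 0.04) beside 0.95. MICAL1, KLF4, SLC34A3 and DEFB106A had differences of opposite sign to the comparison that did not pass the test, at −0.67, −0.65, 0.71 and 0.68. DEFB106A was not called between DHT and enzalutamide without DHT replicate 2 (adjusted p = 0.20), and neither it nor SLC34A3 was without DHT replicate 1 or enzalutamide replicate 1 or 3, with the 6 arrays alone or without the intensity trend.

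The authors' deposited table marked 2537 probe sets between these groups, 1253 higher and 1284 lower with DHT. Of those marked in the authors' deposited table, 2170 (85.6%) were also called here, which is 65.3% of the probe sets called here, and 0 had the opposite direction.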

How the data were processed

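Biotin-labelled cRNA from total RNA was measured on single-colour arrays, per the labels. MAS5 is named in the submitters' processing notes without a version. The deposited values are log2 signals, judged from their range, and the linear trimmed mean is nearly the same on every array (500.05 to 500.06). The deposited p-values and marks of the authors' table were used only for its counts, per the file headers.

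The log2 values of 54613 probe sets (62 controls left out) were fitted with limma 3.58.1 in R 4.3.3: 6 group means over 18 arrays, 12 residual degrees of freedom, eBayes with an intensity trend, Benjamini-Hochberg adjustment, threshold 0.05. In simulated data of 54613 probe sets, 57% of 2-fold and 94% of 4-fold changes were recovered, and 5 unchanged probe sets were called. The changed probe sets were drawn only from those at or above the median signal, so recovery at lower signals was not assessed. The simulated noise was independent for each value and held no array-wide effect such as that of shortened RNA. Tables and figures used Python 3.11.15. Symbols were updated through RefSeq (GRCh38.p14), and 10470 probe sets had no symbol and 573 several; these were not named. Promoters are from RefSeq, for the listed start of each gene.

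Named genes were the 15 largest differences each way among called genes at or above the median signal whose arrays did not overlap, up to 4 members per list with those needed to state counts, KLK3, KLK2, TMPRSS2, FKBP5 and FOXA1, and up to 6 genes for each pattern against vehicle and with both compounds. List members beyond these were chosen after their values were seen, and some genes are not reported here. The comparison, its lists and its tests were chosen with earlier results of these data known. The labels do not say whether replicate numbers pair the samples, so the main fit did not pair them. The number of arrays limits the precision. Alternatives covered the arrays fitted, low signals, centring, quantile normalization, an offset of 32, the trend, a replicate block and leaving out arrays.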

Additional observations from a re-analysis of the deposited data

How the results depend on the processing

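The number of arrays limits the comparison, and low signals carry most background. With the 6 arrays alone, which leave 4 residual degrees of freedom, 1474 probe sets were called (811 higher and 663 lower) and 753 genes, and 1434 of the probe sets were among the 3322. Centring on the median gave 1009 probe sets lower. Leaving out a replicate of either group gave 2352 to 3305 probe sets, without the arrays of high actin ratio 3777 were called, and with the replicate number as a replicate block 3422. Same-numbered DHT and enzalutamide arrays had correlations of deviations of 0.03, 0.07 and −0.03, while different-numbered ones ran from −0.13 to 0.12. These values show no sign of pairing by number, but so few arrays cannot exclude it. In none of the 14 settings was a probe set of the 3322 called in the opposite direction. A set of 59 genes covered the largest differences, the patterns against vehicle and with both compounds, and a few set genes such as KLK3. Of these 59 genes 41 changed call in none of the settings and 18 in some. Other list members are not counted there, and many of them lost their call in some setting. With the 6 arrays alone SCAP, SRM, AKR1C3, BIRC3, NFKBIA and CDK2 were not called (limma, adjusted p = 0.11, 0.087, 0.071, 0.090, 0.091 and 0.057).

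The medians over genes called in each setting kept their sign. For DHT with enzalutamide 10 µM minus vehicle, centring gave 0.20 for the genes higher with DHT and −0.29 for those lower, and leaving out a replicate gave 0.13 to 0.18 and −0.26 to −0.21. For DHT with enzalutamide 1 µM minus enzalutamide 1 µM, centring gave 0.57 and −0.39, leaving out a replicate gave 0.33 to 0.43 and −0.47 to −0.39, and leaving out the arrays of high actin ratio gave 0.39 and −0.31.
The cause of these shifts was not tested.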
